A study of Mus musculus with 66 samples.

Results

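Gabra2 encodes the alpha2 subunit of the GABA-A receptor, and it was followed through all of its probe sets on a mouse expression array. Every probe set that the platform annotation assigns to Gabra2 was taken, which gave 5 of the 45037 probe sets in the table. A probe set is a group of short probes that together report 1 transcript. Of the 5, 3 had a mean over all arrays above log2 5.10, the level below which dim probe sets were removed: 1455444_at, 1443865_at and 1421738_at. The brightest, 1455444_at, stood for Gabra2 among the 13196 genes compared. The gene was picked with its differences between strains already known, so its strain values are given as a description without a test, and tests were kept for its response to ethanol.

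The arrays measured RNA of the medial prefrontal cortex of male mice aged 10 to 12 weeks, with 66 arrays in all. Saline C57BL6/J, ethanol C57BL6/J, saline DBA/2J and ethanol DBA/2J had 3 arrays each; the labels spell the first strain C57BL6/J, the inbred line usually written C57BL/6J. The BXD panel, recombinant inbred strains bred from crosses of C57BL6/J and DBA/2J, had 27 strains with 1 saline and 1 ethanol array per strain. Ethanol was given intraperitoneally at 1.8 g/kg and saline by the same route. The saline controls went through the same handling as the ethanol groups: 15 minutes of restraint, 10 minutes of a light-dark test and tissue collection 4 hours after injection. RNA of 4 to 5 animals was pooled for each array, so the spread between arrays is a spread between pools. No genotypes, detection calls or array batches were used here.

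GABA-A receptors are chloride channels opened by the transmitter GABA, and each is built from subunits of several classes (alpha, beta, gamma, delta and others). The alpha subunit sets much of a receptor's pharmacology. Receptors with alpha2 are found on the cell body, dendrites and axon initial segment of cortical pyramidal neurons, and in mice they mediate part of the calming action of benzodiazepines. In humans GABRA2 is known for its association with alcohol dependence. The C57BL/6J substrain is known to carry a small intronic deletion in Gabra2 that lowers its RNA and protein in brain and that arose after the first BXD strains had been bred. The strains numbered BXD01 to BXD32 belong to that first set and are called older here, and BXD33 and above are called later.

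The Gabra2 promoter is shown because the RNA level of this gene by strain is the subject of the values below. It is the RefSeq sequence of build GRCm38.p6 at chr5:71095800-71096099, minus strand, from 250 bases before to 50 bases after the annotated start, written 5′ to 3′ with GC boxes in capitals.
Gabra2 promoter: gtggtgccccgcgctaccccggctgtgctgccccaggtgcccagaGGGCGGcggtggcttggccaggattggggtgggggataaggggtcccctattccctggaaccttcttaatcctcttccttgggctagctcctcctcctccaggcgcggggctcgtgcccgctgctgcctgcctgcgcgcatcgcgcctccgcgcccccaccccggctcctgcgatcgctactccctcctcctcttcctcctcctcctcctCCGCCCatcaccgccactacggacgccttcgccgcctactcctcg
The window was 70% G or C, where the median of 32851 promoters was 52.7%, and it held 25 CpG dinucleotides against a median of 7. As many CpGs were found in 18.4% of promoters. The GC box GGGCGG, the core letters bound by Sp1, occurred once on each strand, starting at positions 46 and 256, and 35.7% of promoters held it on either strand. The letters TGACG, a core of CREB sites, were not in this window on either strand, while 20.8% of promoters held them. A TATA box, searched as the letters TATAAA on both strands, was likewise not in this window and was held by 13.6% of promoters. The reference sequence is that of C57BL/6J, and sequence differences between the strains were not analysed here.

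The deposited log2 levels had array medians between 5.67 and 5.77 and array standard deviations between 2.06 and 2.17, and the number of arrays limits the precision. Of 18193 genes fitted without the filter on dim probe sets, 13196 were past it. Of the listed markers, 4 of 5 excitatory neuron, 7 of 7 inhibitory neuron and 5 of 5 astrocyte ones were tested. So were 6 of 8 striatal neuron, 5 of 6 oligodendrocyte, 5 of 5 microglia, 4 of 4 endothelial and 4 of 4 meningeal markers. The counts therefore do not single out cortical cell types.

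Gabra2 was higher in DBA/2J than in C57BL6/J after saline and after ethanol, in all 3 probe sets past the filter. On 1455444_at the saline C57BL6/J arrays read 7.87, 7.84 and 7.62 on the log2 scale, and the saline DBA/2J arrays read 8.39, 8.65 and 8.61. The ethanol C57BL6/J arrays read 7.86, 7.53 and 7.81, and the ethanol DBA/2J arrays 8.53, 8.67 and 8.88. The highest C57BL6/J array of either treatment lay below the lowest DBA/2J array, so the strains did not overlap. The difference, DBA/2J minus C57BL6/J, was 0.77 (SE 0.11) after saline, or 1.71-fold (95% interval 1.44 to 2.02), and 0.96 (SE 0.11) after ethanol, or 1.94-fold (1.64 to 2.30). After saline 10.3% of the 13196 genes differed between these strains at an adjusted p below 0.05 (4.07% higher and 6.27% lower in DBA/2J) and after ethanol 7.23% (4.34% higher and 2.89% lower). A total of 210 genes (1.59%) and 108 genes (0.818%) had a difference at least as large in size as that of Gabra2.

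The probe set 1443865_at separated the strains most evenly. Saline C57BL6/J arrays read 7.27, 7.32 and 7.31 and saline DBA/2J arrays 8.34, 8.38 and 8.21. After ethanol the C57BL6/J arrays read 7.24, 7.29 and 7.23 and the DBA/2J arrays 8.22, 8.22 and 8.26. The spread within a group was small beside the gap between strains, which was 1.01 (SE 0.08, 2.01-fold) after saline and 0.98 (SE 0.08, 1.97-fold) after ethanol.

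The probe set 1421738_at was more variable. Saline C57BL6/J arrays read 6.53, 6.50 and 6.59 and saline DBA/2J arrays 7.44, 7.69 and 7.20. Ethanol C57BL6/J arrays read 6.60, 6.37 and 5.88 and ethanol DBA/2J arrays 7.39, 7.65 and 8.19. The strains did not overlap here either, with differences of 0.91 (SE 0.19) and 1.46 (SE 0.19), and the widest groups were the ethanol ones. The dim probe sets had smaller differences: 0.31 (SE 0.09) and 0.12 (SE 0.09) for 1420299_at, and 0.30 (SE 0.15) and 0.37 (SE 0.15) for 1449807_x_at, after saline and ethanol. Their means over all arrays were 3.41 and 4.03, which may be background, and their sizes are not exact.

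**Figure D1:**
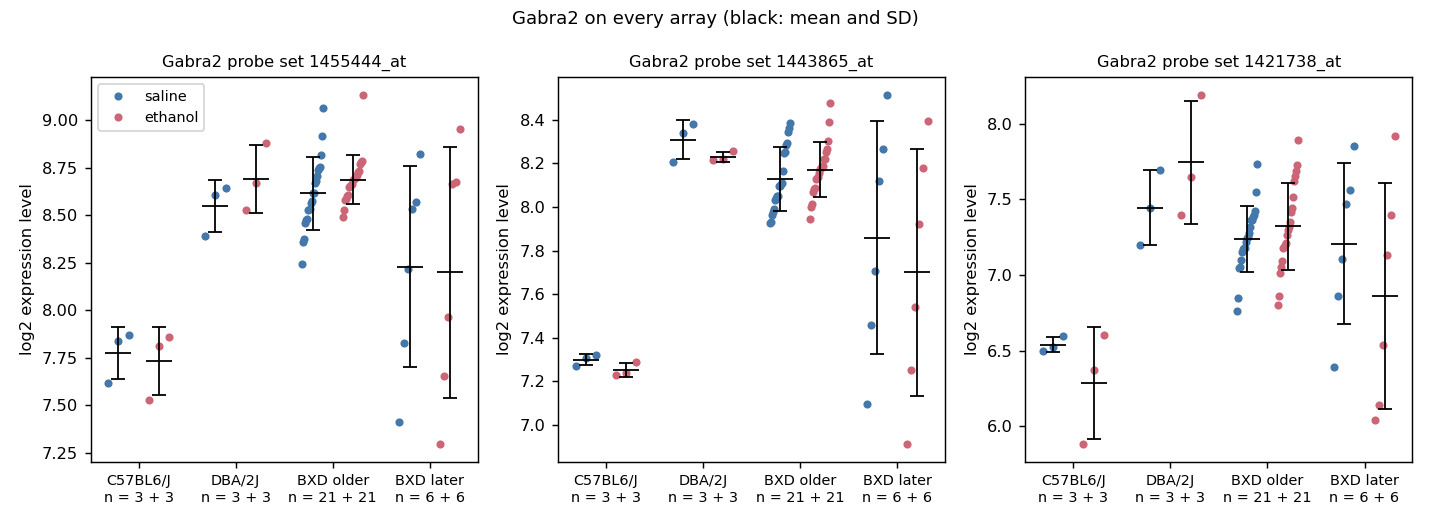
Gabra2 log2 level (y axis) on every array for the 3 probe sets past the filter, by strain class (x axis) and treatment, blue for saline and red for ethanol. Black bars are the mean and SD; C57BL6/J lies below DBA/2J and all older BXD arrays in each panel, and the later BXD strains spread over the range of both.

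The gap between strains came with a difference in oligodendrocyte markers. All 5 oligodendrocyte markers tested (Mbp, Mobp, Mog, Mag and Cnp) were lower in DBA/2J after saline, with a median difference of -0.71, where 6.27% of all genes were lower. After ethanol 3 of the 5 were lower, with a median of -0.38, where 2.89% of all genes were. Their mean log2 level ran from 9.50 to 9.58 on saline C57BL6/J arrays and from 8.65 to 9.02 on saline DBA/2J arrays, and from 9.21 to 9.48 and 8.86 to 8.95 on ethanol arrays. In bulk tissue fewer cells of a type and less RNA per cell cannot be told apart. Of the neuronal markers tested, 0 of 4 excitatory and 0 of 7 inhibitory ones passed after saline, and 1 excitatory marker was lower and 1 inhibitory marker higher in DBA/2J after ethanol. Of the meningeal markers, 2 of 4 were lower in DBA/2J after ethanol (median -0.30) and 0 of 4 passed after saline, and 1 of 5 microglia markers was lower after saline and 0 after ethanol. No astrocyte, endothelial or striatal neuron marker passed in either. Over the 21 older BXD strains the strain mean of Gabra2 had, as a description, correlations of 0.39 with the microglia, 0.32 with the excitatory neuron, 0.32 with the astrocyte and -0.27 with the oligodendrocyte level, and between -0.24 and 0.20 with the other 4 marker lists. The part of these markers in the Gabra2 difference was not tested.

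Ethanol did not produce a detectable change in Gabra2 in any group. Across the BXD panel 1455444_at had a mean of 8.53 ± 0.33 after saline (range 7.41 to 9.06, median 8.57) and 8.58 ± 0.37 after ethanol (range 7.30 to 9.14, median 8.66; SD, n = 27). The paired difference was 0.05 (SE 0.05, limma adjusted p = 0.957), with a 95% interval from -0.05 to 0.14 and a positive sign in 14 of 27 strains. Only 0.00758% of genes, 1 of 13196, passed in that comparison. The strain differences ran from -0.56 in BXD36 to 0.65 in BXD28, with a median of 0.02. In the other probe sets past the filter the panel difference was 0.00 (SE 0.04) for 1443865_at and -0.01 (SE 0.08) for 1421738_at, in a fit of all probe sets where 0.00444% passed.

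In C57BL6/J the ethanol difference of 1455444_at was -0.04 (SE 0.11, limma adjusted p = 0.975) and in DBA/2J 0.14 (SE 0.11, limma adjusted p = 0.639). Of all 13196 genes 0.00758% passed in C57BL6/J (0.00444% of all probe sets) and 0% in DBA/2J. The difference of these responses, DBA/2J minus C57BL6/J, was 0.19 (SE 0.16, limma adjusted p = 0.744), in a comparison where 0% of genes passed. Its 95% interval ran from -0.16 to 0.53. The probe set 1421738_at had the largest such value, 0.55 (SE 0.27, unadjusted p = 0.0554, adjusted p = 0.686 over all probe sets in limma), made of -0.25 in C57BL6/J and 0.30 in DBA/2J, while 1443865_at gave -0.03 (SE 0.12).

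The BXD strains did not form a graded series from C57BL6/J to DBA/2J. On 1455444_at, 24 of the 27 strain means (the mean of a strain's saline and ethanol array) lay between 8.44 in BXD05 and 8.89 in BXD01, with a median of 8.64. The other 3 lay well below: BXD38 at 7.35, BXD33 at 7.90 and BXD36 at 7.94. BXD38 read 7.41 after saline and 7.30 after ethanol, BXD33 read 7.83 and 7.96, and BXD36 read 8.22 and 7.66. The other 24 strains ran from 8.25 to 9.06 after saline and from 8.49 to 9.14 after ethanol, so the low strains did not overlap them in either treatment. Since these 3 were picked by their level, the difference of -0.80 after saline and -1.06 after ethanol is a description only.

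The low strains were compared with the progenitors on the same probe set. The 6 C57BL6/J arrays ran from 7.53 to 7.87 and the 6 DBA/2J arrays from 8.39 to 8.88. Both BXD38 arrays lay below the lowest C57BL6/J array, 1 array each of BXD33 and BXD36 lay inside the C57BL6/J range, and the other array of each lay between the progenitors. Neighbouring strains in the order differed by at most 0.07 among the 24 upper strains, less than the spread of 0.18 (SD) between a strain's own arrays, so their order carries no weight. Only the steps from BXD38 to BXD33 (0.54) and from BXD36 to BXD05 (0.51) exceeded that spread, at 2.96 and 2.77 times it.

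**Figure D2:**
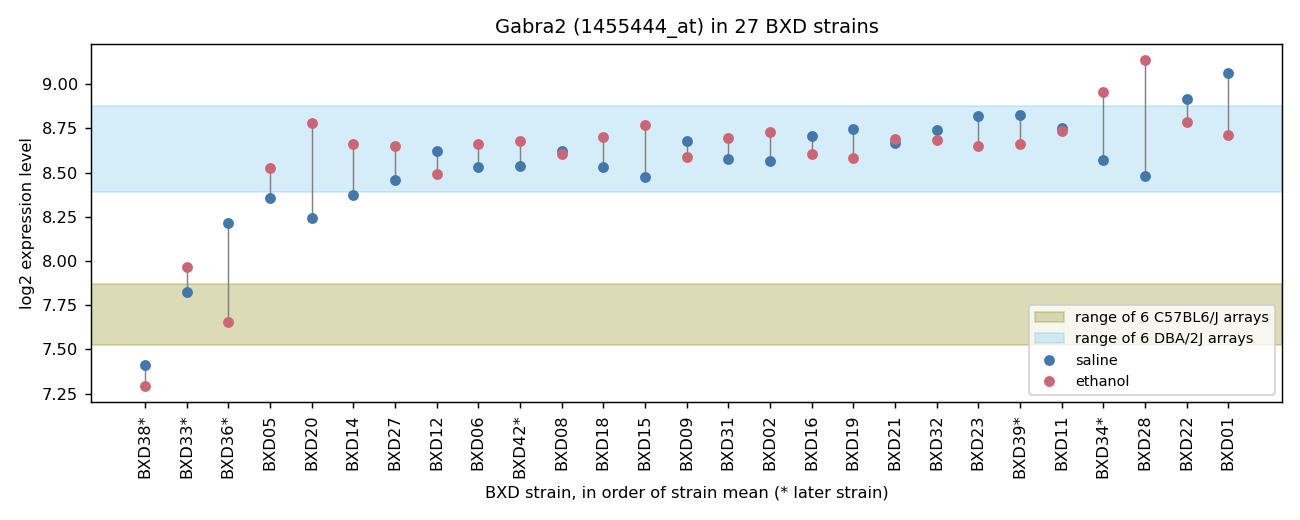
Gabra2 log2 level (1455444_at, y axis) on the saline (blue) and ethanol (red) array of each of 27 BXD strains, ordered by strain mean, with the range of 6 C57BL6/J and 6 DBA/2J arrays as bands. BXD38, BXD33 and BXD36, all later strains (*), lie around and below the C57BL6/J band, with 1 array each of BXD33 and BXD36 between the bands, and the remaining 24 in or near the DBA/2J band.

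A second probe set placed the same strains apart. On 1443865_at BXD36 averaged 7.48 and BXD33 7.50, BXD38 lay lower still, and the next strain was at 8.00. BXD38 read 7.10 after saline and 6.91 after ethanol, BXD36 read 7.70 and 7.25, and BXD33 read 7.46 and 7.54, against 7.92 to 8.52 (saline) and 7.92 to 8.48 (ethanol) in the other 24. The gap from BXD33 to the next strain was 3.23 times the within-strain SD of 0.15. That is past the multiple of 3 used to call strains separate clusters. The step from BXD38 to BXD36 was also past it, at 3.09 times. On 1455444_at no step was past it. The matching gap above the 3 low strains was 2.77 times there, and that from BXD38 to BXD33 was 2.96 times. On 1421738_at the same strains were lowest, at 6.26 (BXD38), 6.45 (BXD36) and 6.82 (BXD33), with the next at 7.02, but their saline arrays overlapped the others. On the dim probe set 1449807_x_at they were again the 3 lowest, with strain means of 3.82 (BXD33), 3.85 (BXD36) and 3.90 (BXD38), but BXD38 lay only 0.0029 below the next strain and single arrays overlapped the others. On 1420299_at their strain means ran from 3.16 to 3.61, inside and below the range of 3.29 to 3.62 of the other 24.

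All 3 low strains were later strains, 3 of 6, and 0 of 21 older strains was low; the later strains BXD34, BXD39 and BXD42 were among the upper 24. On 1455444_at the later saline arrays ran from 7.41 to 8.82 and the older ones from 8.25 to 9.06, and after ethanol from 7.30 to 8.96 and from 8.49 to 9.14. The difference, later minus older, was -0.39 (SE 0.13) after saline and -0.49 (SE 0.14) after ethanol. Without BXD38 it was -0.22 and -0.31. On 1443865_at it was -0.27 (SE 0.12) and -0.47 (SE 0.12), and on 1421738_at -0.03 (SE 0.13) and -0.46 (SE 0.18). In these comparisons 0% of genes passed over all 13196 in limma, with 1142 after saline and 310 after ethanol at an unadjusted p below 0.05. Without BXD38, 10 genes (1 higher and 9 lower) passed after saline. A total of 43 genes (0.326%) after saline and 20 (0.152%) after ethanol had a difference at least as large in size as that of Gabra2. Every older strain's array lay above the highest C57BL6/J array on 1455444_at, 1443865_at and 1421738_at.

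How far a strain's saline array resembled its ethanol array was given by the intraclass correlation, which is near 1 when strain sets the level and near 0 when it does not. It was 0.73 for 1455444_at, with 503 of 13196 genes (3.81%) at least as high and a median gene at 0.18. It was 0.76 for 1443865_at, 0.31 for 1421738_at, 0.18 for 1420299_at and 0.27 for 1449807_x_at. Among the 21 older strains alone, an alternative added after seeing the data, it was -0.08 for 1455444_at, -0.04 for 1443865_at and -0.36 for 1421738_at, where the median gene was at 0.15. With the 6 later strains left out, the saline and ethanol arrays of a strain thus resembled each other no more than arrays of different strains.

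Agreement between probe sets had the same shape. Over all 27 strain means the correlation of 1455444_at with 1443865_at was 0.96 (Spearman 0.75) and with 1421738_at 0.88 (0.68), and 1443865_at with 1421738_at gave 0.88 (0.62). The 3 low strains weigh heavily in these pooled values. Over the 21 older strains the same pairs gave only 0.56 (0.56), 0.52 (0.53) and 0.45 (0.46), and taken on saline and on ethanol arrays apart the first pair gave 0.61 and 0.32. The probe set 1421738_at showed no such agreement on single treatments, with 0.04 (saline) and -0.21 (ethanol) against 1455444_at and 0.10 and -0.08 against 1443865_at. Probe sets of 1 array share its RNA and scan, so these are descriptions of the arrays as well as the strains.

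**Figure D3:**
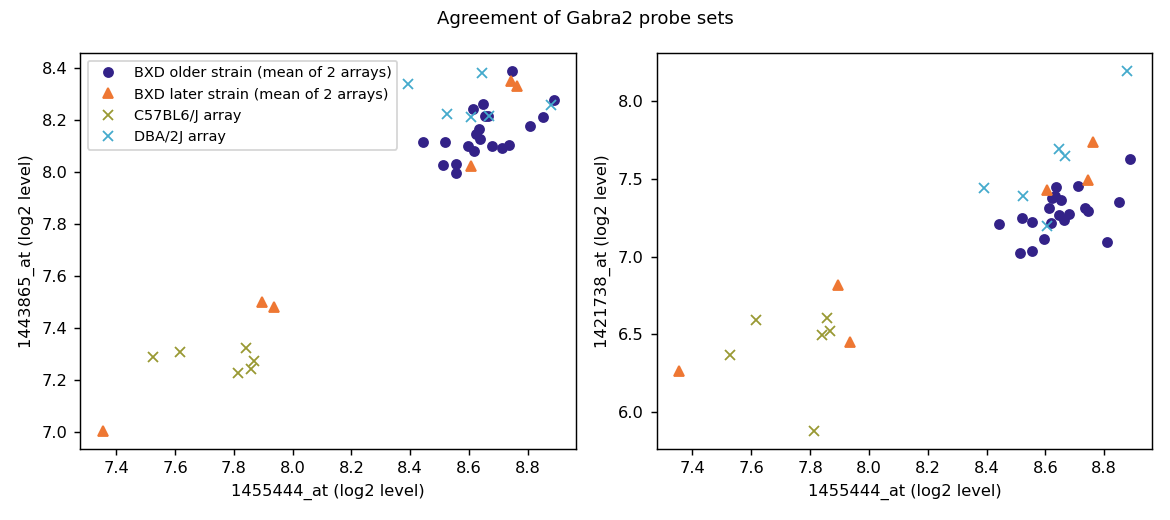
Strain means of Gabra2 on 1443865_at and 1421738_at (y axes, log2) against 1455444_at (x axes, log2), circles for 21 older and triangles for 6 later BXD strains, crosses for the 12 progenitor arrays. The 3 low strains lie beside the C57BL6/J arrays, and the cluster of the rest, near the DBA/2J arrays, has correlations of 0.56 and 0.52 in the older strains.

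The level of Gabra2 moved with a property of the whole array in the older strains. The array SD, the spread of all log2 levels on an array, had a correlation of 0.75 (Spearman 0.73) with the 1455444_at strain mean over 21 older strains and 0.51 over all 27, and of 0.57 and 0.48 with 1443865_at. BXD38 had array SDs of 2.07 and 2.07 (saline and ethanol), BXD36 2.13 and 2.08, and BXD33 2.14 and 2.13. BXD38 was therefore at the low end of the array SD and BXD33 was not. With the array SD as a covariate, added after seeing the data, the difference of DBA/2J from C57BL6/J was 0.87 after saline and 0.91 after ethanol, and later minus older was -0.57 and -0.43.

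**Figure D4:**
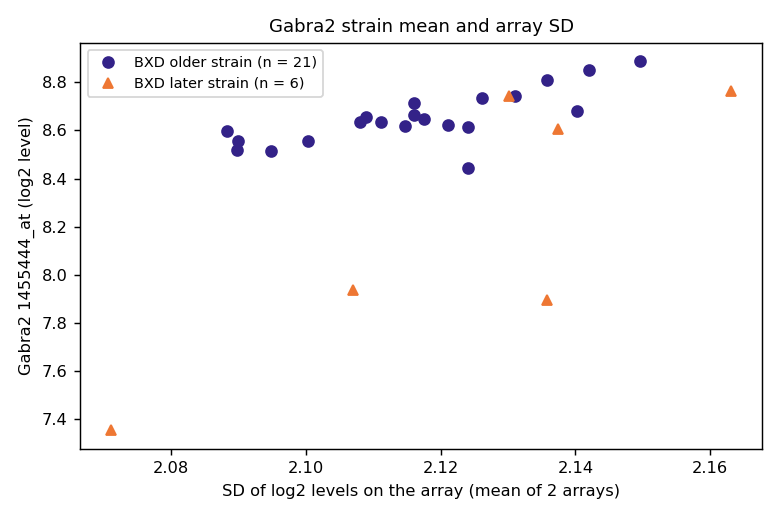
Gabra2 strain mean (1455444_at, log2, y axis) against the SD of log2 levels on the strain's arrays (mean of the saline and ethanol array, x axis), circles for 21 older and triangles for 6 later strains. The older strains rise together (Pearson correlation 0.75), while BXD33, BXD36 and BXD38 lie below them.

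Besides Gabra2, 9 GABA-A subunits were tested, as 1 brightest probe set per gene. None of the 9 tested, Gabra3, Gabra4, Gabra5, Gabrb1, Gabrb2, Gabrg1, Gabrg3, Gabrd and Gabrp, passed in limma in any of the 8 comparisons, where 0 to 3 of them had an unadjusted p below 0.05. In the saline strain comparison 0 of 9 passed against 10.3% of all genes, and in the ethanol one 0 of 9 against 7.23%. Gabra4, another alpha subunit, found mostly in receptors outside synapses, had the largest saline value, -0.22 (SE 0.09, limma adjusted p = 0.129), from 9.61 ± 0.09 in C57BL6/J to 9.38 ± 0.16 in DBA/2J (SD, n = 3). Gabra5, an alpha subunit of tonic inhibition, had -0.22 (SE 0.12) after saline and 0.06 after ethanol. Gabrb1 and Gabrb2, beta subunits, had 0.20 (SE 0.09) and 0.12 (SE 0.08) after saline on their brightest probe sets. After ethanol these had 0.12 and 0.21. Other Gabrb1 probe sets past the filter pointed the other way without passing. After saline and ethanol 1443205_at had -0.69 and -0.71, and 1435095_at had -0.03 and -0.09. Gabrg1 and Gabrg3, gamma subunits, had -0.18 (SE 0.11) and -0.19 (SE 0.12) after saline and 0.11 and -0.21 after ethanol. The median of the 9 was -0.14 after saline and 0.05 after ethanol, where all genes had 0.02 and 0.03.

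**Figure D5:**
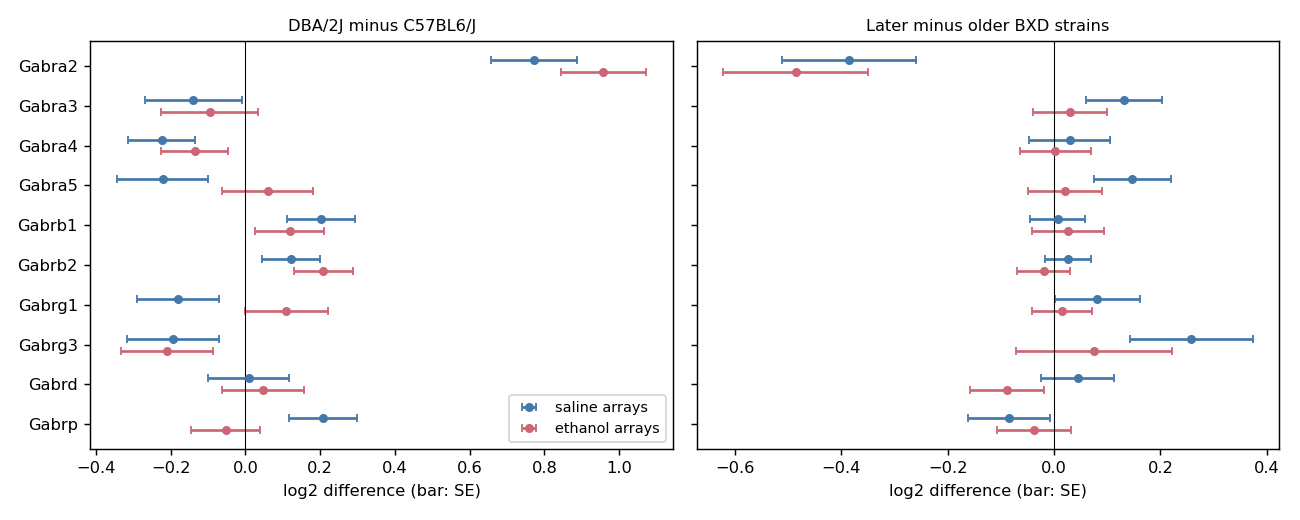
Log2 differences (x axis, bars are SE) of Gabra2 and 9 other GABA-A subunits, DBA/2J minus C57BL6/J (left) and later minus older BXD strains (right), on saline (blue) and ethanol (red) arrays. On the brightest probe set of each gene, Gabra2, at 0.77 and 0.96 on the left and -0.39 and -0.49 on the right, lies outside the range of -0.22 to 0.21 and -0.09 to 0.26 of the other subunits. Other probe sets past the filter, not drawn, lay outside that range on the left, such as 1429685_at of Gabrb2 (-1.24 after saline) and 1443205_at of Gabrb1 (-0.69 after saline). Some did on the right too, without passing. After ethanol these included 1429685_at (-0.25) and 1450319_at (-0.21) of Gabrb2 and 1443205_at of Gabrb1 (-0.17).

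Subunits other than Gabra2 differed by probe set too. With all 45037 probe sets fitted, 5.76% passed after saline and 4.31% after ethanol in the strain comparison, and of the 19 probe sets past the filter for other subunits 1 and 2 did. They were 1429685_at of Gabrb2, lower in DBA/2J by 1.24 after saline and by 1.09 after ethanol (SE 0.12; limma adjusted p = 4.62e-06 and 2.07e-05), and 1450319_at of Gabrb2, with -0.90 after ethanol (SE 0.18, limma adjusted p = 0.00463). The brightest Gabrb2 probe set, 1428203_at, did not pass and pointed the other way. Also lower in DBA/2J without passing were 1450319_at after saline (-0.52) and, after saline and ethanol, 1428204_at (-0.39 and -0.37) and 1428205_x_at (-0.37 and -0.37). For Gabrb2, 1428203_at alone therefore disagreed in direction with the other probe sets, where the 3 Gabra2 probe sets past the filter agreed. Dim probe sets of Gabrg3, Gabra6 and Gabrp passed in addition: 1422187_at of Gabrg3 was higher in DBA/2J by 1.11 after saline and 0.90 after ethanol, and 1451424_at of Gabrp by 0.43 and 1451706_a_at of Gabra6 by 0.37 after saline. These dim levels are not shown to be above background.

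No other subunit passed between later and older strains. Later minus older differences of the 9 ran from -0.08 to 0.26 after saline and from -0.09 to 0.07 after ethanol, and 0% of all genes passed. As a description, correlations of strain means with Gabra2 over the 21 older strains were 0.65 for Gabrg1 and 0.63 for Gabra5, and 0.26, 0.26, 0.08, 0.06, -0.08, -0.15 and -0.19 for Gabra4, Gabrg3, Gabra3, Gabrb1, Gabrp, Gabrb2 and Gabrd. Over all 27 strains those of Gabrg1 and Gabra5 were 0.44 and 0.31, and on ethanol arrays of the older strains alone Gabrg1 had 0.31. Of the other 13195 genes, 1846 had a correlation over 0.5 in size with Gabra2 over the older strains (5th to 95th percentile -0.55 to 0.54). These values come from strains in which the intraclass correlation of Gabra2 was -0.08 and its correlation with array SD 0.75. Gabrg1 is also the nearest protein-coding neighbour of Gabra2 on the chromosome.

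Among all genes, those most like Gabra2 over the 21 older strains were Rfx3 (Pearson 0.83), a transcription factor of cilia genes, Rnf180 (0.82), a ubiquitin ligase, Anks1b (0.80), a postsynaptic scaffold protein, Cmtm6 (0.79) and Morc3 (0.79). The most opposed were Gpa33 (-0.83), 4930413F20Rik (-0.81), Ubl4b (-0.80), Duoxa1 (-0.79) and Cd46 (-0.79). Over all 27 strains they were Pogz (0.75), Polr2d (0.73), an RNA polymerase II subunit, Rab39b (0.72), a small GTPase, Wdfy1 (0.72) and Metap2 (0.72), with Nemp1 (-0.71), Spem1 (-0.69), Bcdin3d (-0.69), 1700003E16Rik (-0.67) and Treml2 (-0.67) opposed. The 5 older-strain and 5 all-strain leaders shared no gene. On ethanol arrays of the older strains alone Gpa33 had -0.25 and 4930413F20Rik -0.17, while Ubl4b, Duoxa1 and Cd46 had -0.66, -0.49 and -0.48. The older-strain values come from strains in which the intraclass correlation of Gabra2 was -0.08 and its correlation with array SD 0.75. Wdfy1, an endosomal protein, had a Spearman correlation of only 0.33 and a strain mean of 6.17 in a low strain against 8.17 to 8.61 in the other 24. Over the older strains its Pearson correlation was 0.54. Wdfy1 was itself higher in DBA/2J by 1.83 after saline and by 2.05 after ethanol (limma adjusted p = 4.44e-10 and 9.63e-11). Pogz was lower in DBA/2J after saline by 0.38 (limma adjusted p = 0.0487) and had -0.03 after ethanol (limma adjusted p = 0.911).

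No tested chromosomal neighbour of Gabra2 passed between strains. Of the 20 protein-coding genes nearest to it, 10 on each side, 12 were tested, and 0 passed in any of the 8 comparisons, where 10.3% of all genes passed in the saline and 7.23% in the ethanol strain comparison. On their brightest probe sets the 12 had strain differences from -0.22 to 0.25 after saline and from -0.14 to 0.22 after ethanol. Gabra2 had 0.77 and 0.96. Bend4 had the smallest adjusted p after saline, 0.0869, at 0.25 (SE 0.09) in limma. Gabrg1, Gabra4 and Gabrb1 lie in the same gene cluster, and their values are those given above.

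Genes that anchor, move or assemble GABA-A receptors, and genes of GABA synthesis and transport, were counted as lists. Of 30 partners, 27 were tested, and 1 passed in 1 comparison: Insyn2a, a protein of inhibitory synapses, was higher in DBA/2J after ethanol by 0.55 (SE 0.13, limma adjusted p = 0.0123). Of 13 GABA handling genes, 10 were tested, and 2 passed in the ethanol strain comparison, Slc32a1, the vesicular GABA transporter, higher by 0.45 (SE 0.12, limma adjusted p = 0.0416), and Gabbr1, a GABA-B receptor subunit, lower by 0.30 (SE 0.09, limma adjusted p = 0.047). In the other comparisons 0 passed. In that comparison 7.23% of all genes passed. The interaction of Slc32a1, its difference between strains in ethanol response, was 0.41 (SE 0.18, limma adjusted p = 0.581).

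The level of Gabra2 was set against the response to ethanol across strains, since the rule that picked the gene did not use that response. The response of Gabra2 itself and that of Npas4, an activity-induced transcription factor, were correlated with the 1455444_at strain mean. Over 27 strains the Gabra2 response had r = 0.18 (permutation p = 0.359) and rho = -0.21 (permutation p = 0.285), and the Npas4 response r = -0.28 (permutation p = 0.151, adjusted 0.302) and rho = -0.42 (permutation p = 0.029, adjusted 0.0581). Neither passed after adjustment over the 2 relations. Leaving out the 2 strains farthest from the median level gave r = 0.22 and r = -0.36. Over the 21 older strains the Gabra2 response had r = -0.38 (permutation p = 0.0858, adjusted 0.172) and rho = -0.54 (permutation p = 0.0128, adjusted 0.0257), and r = -0.14 and rho = -0.40 without the 2 strains farthest from the median, values that were not tested. On 1421738_at the level and response of Gabra2 had r = 0.41 over 27 strains (permutation p = 0.032, adjusted 0.064) and r = 0.29 over the older strains, the opposite sign to 1455444_at in the latter. The level and the response of Gabra2 are the mean and the difference of the same pair of arrays. The sign of their Pearson correlation therefore follows which treatment had the wider spread between strains. On 1455444_at the SD over 27 strains was 0.33 after saline and 0.37 after ethanol. Over the older strains it was 0.19 and 0.13. On 1421738_at it was 0.30 and 0.46 over 27 strains. The Gabra2 values here reflect these spreads and cannot show whether level goes with response. The Npas4 response in the older strains had r = -0.14 (permutation p = 0.543) and rho = -0.26 (permutation p = 0.249).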

How the data were processed

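Per the submitters' processing notes, the authors used affy and RMA (no version is stated in the sources used here) to make the deposited log2 expression levels. RMA corrects background, gives all arrays the same distribution of probe values and combines a probe set's probes into 1 value, so levels are comparable between arrays of a probe set, not between probe sets. Of 45037 probe sets, 34945 had 1 gene symbol, 932 several and 9160 none. A RefSeq table, used for names and gene order, was matched to 34741 of the probe sets with 1 symbol through their Entrez identifiers. These took the symbol of that table. Probe sets with a mean below the 40th percentile (log2 5.10), 18015 in all, were removed, and each gene's brightest remaining probe set was used, which left 13196 genes. The Gabra2 probe sets were also fitted among all 45037.

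Two-sided tests came from limma 3.58.1 (functions lmFit and eBayes, R 4.3.3), with p-values adjusted by Benjamini-Hochberg over all features fitted, with a threshold of 0.05. The BXD ethanol effect had strain as a block, since the labels pair each strain's 2 arrays. The progenitor comparisons shared a fit of 12 arrays without a block: same-numbered arrays had residual correlations from -0.39 to 0.26, so the replicate numbers were not taken as pairs. Nothing in the labels says how the replicate pools differ beyond being separate pools, so p-values measure the spread between them. The fit was tested on simulated data. Correlations over strains used scipy 1.17.1, with 100000 permutations where a p is given.

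The gene, gene lists and rules were chosen with earlier results of these data known. Named were all Gabra2 probe sets, the tested GABA-A subunits, the 5 most and 5 least alike genes over the older and over all strains, tested neighbours within 10 genes, and list members past the threshold. Alternatives were filters, probe sets, scalings, model priors, array weights, blocks and left-out arrays or strains. Array batch was not used here.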

Additional observations from a re-analysis of the deposited data

How the results depend on the processing

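The Gabra2 differences between DBA/2J and C57BL6/J kept their direction under every alternative run. Leaving out 1 array gave 0.69 to 0.85 after saline and 0.86 to 1.04 after ethanol; other probe sets gave 1.01 (1443865_at), 0.31 (1420299_at) and 0.30 (1449807_x_at) after saline and 1.46 (1421738_at), 0.12 (1420299_at) and 0.37 (1449807_x_at) after ethanol. Later minus older ranged from -0.50 to -0.22 (saline) and -0.64 to -0.31 (ethanol) without 1 later strain, and was -0.0307 on 1421738_at (saline), -0.0133 on 1420299_at and -0.00487 on 1449807_x_at (ethanol). The intraclass correlation was 0.18 on 1420299_at, 0.31 on 1421738_at, 0.27 on 1449807_x_at and -0.0835 over older strains only. The ethanol differences passed under no alternative, and their sign turned: in the panel to -0.0117 on 1421738_at and -0.00197 on 1443865_at; in C57BL6/J to 0.12 on 1420299_at, 0.0897 on 1449807_x_at, 0.00233 after repeated quantile normalization and 0.0435 with the array SD as a covariate; in DBA/2J to -0.0739 on 1420299_at and -0.0783 on 1443865_at; and for the difference of responses to -0.19 on 1420299_at and -0.0305 on 1443865_at. Without 1 array they ran from -0.122 to 0.0602 in C57BL6/J (positive without saline replicate 1 or ethanol replicate 2), from 0.05 to 0.23 in DBA/2J and from 0.08 to 0.27 for the difference of responses, and without 1 strain from 0.03 to 0.07 in the panel; over older strains only, added after seeing the data, the panel value was 0.07. The causes were not tested. With the replicate number as a block the values were unchanged and the adjusted p was 0.985 in C57BL6/J, 0.691 in DBA/2J and 0.791 for the difference of responses, and without strain as a block the panel's was 0.9998, so the block changed no call. The level of Gabra2 and its response correlated at -0.38 in older strains, -0.32 on 1449807_x_at and 0.41 on 1421738_at, against 0.18. The sign follows which treatment had the wider spread, as explained above. Probe set agreement on ethanol arrays of the older strains was 0.32 for 1455444_at with 1443865_at, -0.21 for 1455444_at with 1421738_at and -0.08 for 1443865_at with 1421738_at. Correlations with Gabra2 over all 27 strains were 0.31 for Gabra5, 0.33 for Gabrb1, 0.14 for Gabrb2 and 0.44 for Gabrg1. Over the older strains they were 0.25 for Gabrb2 and 0.31 for Gabrg1 on ethanol arrays, and -0.47 for Gabrp on saline arrays. The count of other subunits past the threshold in the saline strain comparison was 0 in most settings, 1 with no filter on dim probe sets, 4 with all probe sets fitted and 0 to 1 without 1 array (1 without saline DBA/2J replicate 2), and in the ethanol one 3 with all probe sets fitted, 1 with all 66 arrays in 1 fit and 0 without any 1 array. Over all genes the saline count of 1365 was 848 without saline C57BL6/J replicate 1, 902 without saline DBA/2J replicate 1, 2596 with all probe sets and 885 when the array SD was a covariate, and the ethanol count of 954 was 640 to 1047 without 1 array and 1943 with all probe sets. The number of arrays, 3 per group in the progenitors, limits these values.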
